A study of Polypterus senegalus with 8 samples.

Results

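The mRNA of bichir (Polypterus senegalus) pectoral fins at 3 days post amputation (dpa) was compared with that of uninjured fins at 0 dpa. These are 2 of the 8 libraries of the series, which holds 1 small RNA and 1 mRNA library for each of 0, 3, 7 and 14 dpa. The pair was taken by its labels, and no measured value chose it. The distal part of each fin was cut off with a scalpel under anaesthesia in otherwise untreated fish, and each library is a single pool of several fin tissues. The labels give no genotype or age, and the housing conditions in the labels differ from those in the methods. Each group therefore held 1 library (3 dpa against 0 dpa), no difference has a replicate check, and no test between groups could be made. The measured unit was the assembly component, a group of transcripts that the assembler could not separate, which stands for a gene or a piece of one. Of 94050 components in the mRNA table, 27122 had a mean of at least 1 CPM, the reads of a component scaled to a common library total, over the 2 libraries and are described here.

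The fin of a fish regrows by steps known from many species. Epidermal cells first close the wound, white blood cells enter the stump, and enzymes loosen the matrix there. Cells near the cut then lose their mature features, divide and gather in a blastema, the mass from which the new fin is shaped. The pectoral fin of bichirs carries muscle in a fleshy base, unlike the rays of the zebrafish tail fin that are often used for such studies.

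The 3 dpa library held 38095865 reads in components and the 0 dpa library 39121698, so depth was close to equal, but the reads were spread in different ways. At 3 dpa 50% of the reads lay in the 853 most abundant components, against 114 components at 0 dpa. The 10 most abundant components took 10.98% of reads at 3 dpa and 19.55% at 0 dpa, and those leading at 0 dpa took 5.43% of the 3 dpa reads. At 3 dpa 2796 components were listed at 0, against 31559 at 0 dpa. A listed 0 stands for 0 reads or 1 read. The median component had a log2(CPM + 1) value 1.05 higher at 3 dpa than at 0 dpa, and 78.8% of the components that passed the filter had a higher CPM. A trimmed mean of log ratios put the offset at 1.20. Leaving the 10 most abundant components of either library out of the totals left a median of 0.91. Every relative change below is the log2 change in CPM minus the 1.05 of the median component, and higher or lower is counted beyond 2-fold on that relative scale. A component with equal CPM in both libraries therefore counts as lower.

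By this rule 4507 of 27122 components (16.6%) were higher and 5998 (22.1%) lower, which makes 42.9% of the counted components higher. With library totals and no median taken off, 14023 (51.7%) were higher and 2406 (8.87%) lower, which makes 85.4% of the counted components higher. The share of lower components was largest among the most abundant ones, although most of the falls lay at low CPM. Of 127 components with a mean above 1000 CPM, 101 were lower and 7 higher, with a median relative change of -2.42, whereas among 9162 with a mean of 10 to 100 CPM the numbers were 1915 lower and 2130 higher. Among 16729 with a mean of 1 to 10 CPM, 3612 were lower and 2157 higher. Gene names were available only where the study pairs a transcript with a gene symbol. That held for 2028 of the components that passed the filter (7.48%), of which 19.9% were higher and 24.1% lower. Many of these names come from tables of genes that the study selected as higher or lower at 7 dpa against the same 0 dpa library, in both bichir and zebrafish. Among components from the table of higher genes 293 of 892 were higher at 3 dpa and 43 lower, and among those from the table of lower genes 54 of 918 were higher and 422 lower. The direction of a list built from such names is not independent evidence. Each list count below stands against the 16.6% higher and 22.1% lower among all components. List counts with library totals stand against 51.7% and 8.87%. The 199 components named only through an ortholog table that was not sorted by direction had 51 higher and 18 lower. Their symbols came from other tables of the study, some of them selected by direction. This split is therefore not free of that selection.

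**Figure D1:**
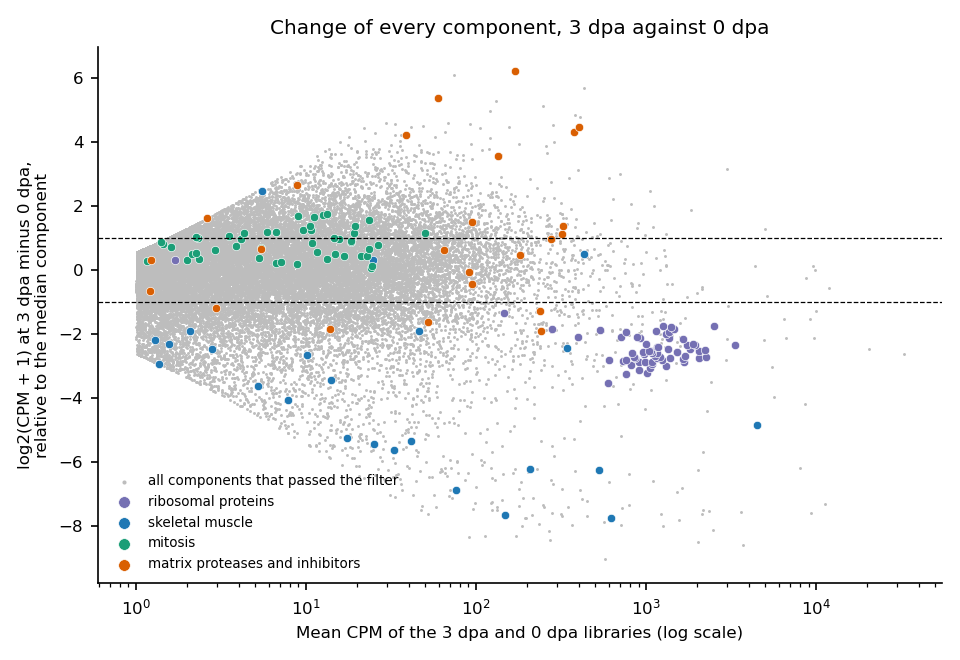
Relative change at 3 dpa against 0 dpa (vertical, log2) by mean CPM of both libraries (horizontal, log scale) for the 27122 components that passed the filter. Dashed lines mark 2-fold. Matrix proteases reach 6.19, ribosomal proteins gather near the list median of -2.57 at high CPM, and muscle components reach -7.76.

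Matrix-degrading enzymes held the largest rises among named components. Of 31 components with a name on the list of matrix proteases and inhibitors 24 passed the filter, and 11 were higher and 5 lower, with a median relative change of 0.80 against 0 for all components. Of the 24, 15 carried names from the 7 dpa table of higher genes and 4 from that of lower genes. The stromal collagenase MMP13, which cuts fibrillar collagen, led the list through components assigned to the zebrafish genes mmp13a and mmp13b. The component comp59594_c0 (mmp13b) had 335 CPM at 3 dpa and 1.23 CPM at 0 dpa, from 12777 and 48 reads. Its log2 change was 7.24 (95% counting interval 7.00 to 7.47), a relative change of 6.19. The components comp59559_c0 and comp57477_c0, also assigned to mmp13b, had 119 and 75.9 CPM at 3 dpa, against 0.409 and 1.02 CPM at 0 dpa. The main mmp13a component, comp59545_c0, had 733 CPM at 3 dpa and 16.9 CPM at 0 dpa. Several components share each of these names, so they may be pieces or copies of the same gene and are not separate events. A further mmp13a component, comp61282_c0, with 200 reads at 3 dpa and a listed 0 at 0 dpa, was at least 68.5-fold higher when 3 reads are allowed at 0 dpa.

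The gelatinase mmp9, a marker of early wound responses in fish fins, had 786 CPM at 3 dpa and 16.2 CPM at 0 dpa, from 29939 and 635 reads. That is 48.4-fold in CPM, a log2 change of 5.51 (5.41 to 5.62) and a relative change of 4.47. The membrane-anchored adam8a, a protease found on leukocytes, had 259 CPM at 3 dpa and 9.69 CPM at 0 dpa. The membrane-type matrix metalloproteinase mmp14, which activates other proteases at the cell surface, had 543 CPM at 3 dpa against 102 CPM at 0 dpa (relative change 1.35). Lysosomal proteases were mixed. Cathepsin C (ctsc), which activates the granule proteases of white blood cells, had 162 CPM at 3 dpa and 27.1 CPM at 0 dpa, and one cathepsin L component (ctsla, comp16903_c0) had 525 CPM at 3 dpa and 116 CPM at 0 dpa. Another ctsla component, comp45917_c0, was lower with 41.2 CPM at 3 dpa and 62.5 CPM at 0 dpa (relative change -1.64), but the single transcript that the study names within it had 0.95. The gelatinase mmp2 fell in CPM as well, with 170 CPM at 3 dpa and 313 CPM at 0 dpa. Its log2 change was -0.88 (-0.92 to -0.84), within 2-fold, and its relative change -1.93, which counts as lower. Inhibitors were on the list as well. The tissue inhibitor of metalloproteinases timp2 had 268 CPM at 3 dpa and 94.0 CPM at 0 dpa (relative change 0.46), and the cystatin cst3, which inhibits cathepsins, was lower with 217 CPM at 3 dpa and 260 CPM at 0 dpa (relative change -1.31).

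**Figure D2:**
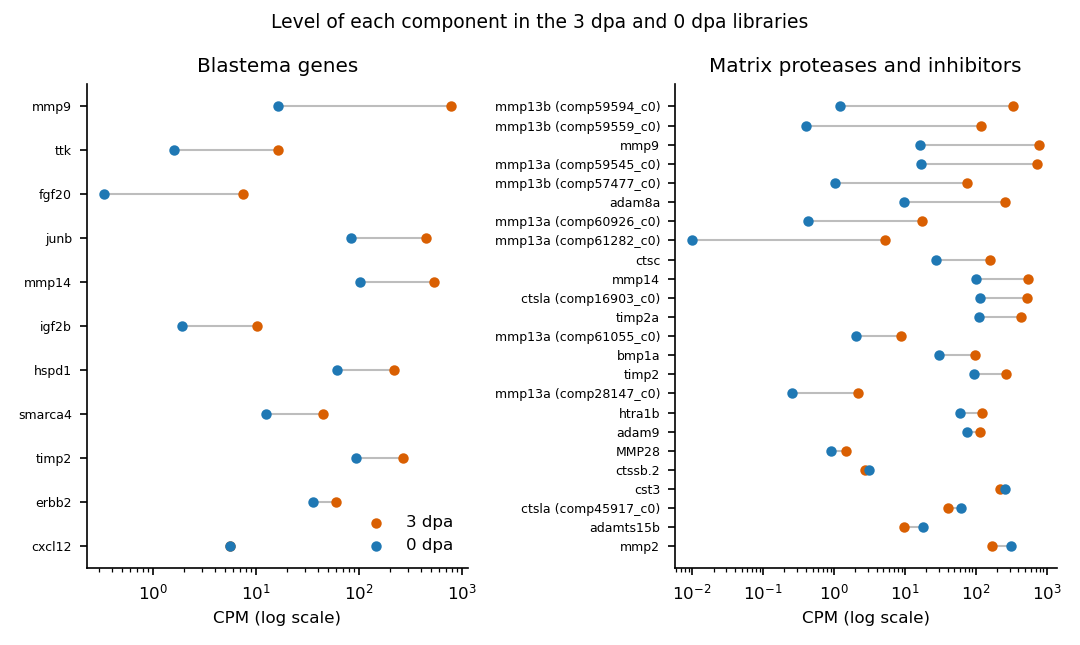
CPM (log scale) at 3 dpa (orange) and 0 dpa (blue) of the 11 blastema genes on the left and the 24 protease and inhibitor components that passed the filter on the right, ordered by relative change. Wide gaps include those of an mmp13b component (335 CPM at 3 dpa, 1.23 CPM at 0 dpa) and mmp9 (786 CPM at 3 dpa, 16.2 CPM at 0 dpa). A component listed at 0 is drawn at the left edge.

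The 11 genes that the study lists as shared blastema genes, a set drawn up from changes at 7 dpa against the same 0 dpa library and so not independent evidence, all passed the filter at 3 dpa. Relative to the median component 5 were higher and 1 lower, with a median relative change of 0.89. Besides mmp9 and mmp14, the higher genes were ttk, a kinase of the spindle checkpoint, fgf20, the growth factor that zebrafish need to start a blastema, and junb, a subunit of the transcription factor AP-1. For ttk the level was 16.4 CPM at 3 dpa and 1.61 CPM at 0 dpa (relative change 1.69). For fgf20 it was 7.45 CPM at 3 dpa and 0.332 CPM at 0 dpa, from 284 and 13 reads, with a log2 change of 2.67 (2.40 to 2.87). For junb it was 445 CPM at 3 dpa and 83.4 CPM at 0 dpa (relative change 1.36). The mitochondrial chaperone hspd1, the chromatin remodeller smarca4, the growth factor igf2b, the inhibitor timp2 and the receptor erbb2 were within 2-fold of the median component, with relative changes from -0.33 to 0.89. Each of these had a higher CPM at 3 dpa. The chemokine cxcl12 had 5.64 CPM at 3 dpa and 5.62 CPM at 0 dpa, which counts as lower (relative change -1.04) only because the median component is taken off. With library totals its log2 change was 0.00.

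Of a further 14 genes that the study associates with the blastema and pairs with a bichir transcript, 3 were higher and 8 lower, with a median relative change of -1.19. With library totals 5 were higher and 3 lower, against 51.7% higher and 8.87% lower among all components on that scale. In CPM 6 of the 14 were above their 0 dpa level, against 78.8% of all components. The gap junction gene cx43, which sets bone segment length in zebrafish fins, had 29.2 CPM at 3 dpa and 4.68 CPM at 0 dpa. The receptor erbb3 had 48.6 CPM at 3 dpa and 7.64 CPM at 0 dpa. The FGF feedback inhibitor spry4, with 124 reads at 3 dpa and a listed 0 at 0 dpa, was at least 42.4-fold higher. Among the lower genes, bambia, a decoy receptor of the BMP pathway, had 4.99 CPM at 3 dpa and 16.7 CPM at 0 dpa, and the BMP ligand bmp2 had 3.99 CPM at 3 dpa and 9.84 CPM at 0 dpa. Fibronectin (fn1), a provisional matrix protein of wounds, had 338 CPM at 3 dpa and 454 CPM at 0 dpa, a log2 change of -0.43 (-0.46 to -0.39). At 7 dpa its level was 648 CPM.

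Structural matrix genes did not move as a block. Among 17 components of other matrix proteins that passed the filter, 4 were higher and 4 lower (median relative change 0.48), near the 16.6% and 22.1% among all components. The 7 dpa table of higher genes gave 10 of the 17 names. The linker protein fras1 of the basement membrane had 153 CPM at 3 dpa and 7.21 CPM at 0 dpa (relative change 3.18). The laminin chain lamb1a had 294 CPM at 3 dpa and 26.9 CPM at 0 dpa (relative change 2.35). The anchoring fibril collagen col7a1 had 521 CPM at 3 dpa and 52.2 CPM at 0 dpa, a log2 change of 3.29 (3.23 to 3.36). In contrast, tenascin C (tnc), a matrix protein of blastemas in other species, had 132 CPM at 3 dpa and 295 CPM at 0 dpa (relative change -2.20), and 401 CPM at 7 dpa. Both components of the small proteoglycan podocan (podn) were far lower, with 1.52 and 1.73 CPM at 3 dpa, against 43.5 and 25.1 CPM at 0 dpa.

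Of 21 collagen components only 9 passed the filter, because most components that the study pairs with the fibrillar collagens had few reads in either library. Among the 9, 3 were higher and 2 lower, with a median relative change of -0.18. Among 20 single collagen transcripts 11 were higher and 4 lower, with a median of 1.34, against 19.4% and 24.5% of all transcripts. These 20 are not separate genes, since 1 component can give several of them. The components of col7a1 and col12a1b, both higher, hold 9 and 3 transcripts. In col16a1 the component had a relative change of -0.51 and the transcript that the study names 3.15. The basement membrane collagen col15a1b had 73.2 CPM at 3 dpa and 98.1 CPM at 0 dpa (relative change -1.46), and both components of col4a5 that passed the filter were near the median component. The fibril-associated collagen col12a1b had 733 CPM at 3 dpa and 155 CPM at 0 dpa, whereas the cartilage collagen col9a3 had 17.4 CPM at 3 dpa and 35.1 CPM at 0 dpa. Enzymes that mature collagen split likewise, with 1 of 9 higher and 3 lower. The lysyl oxidases lox and loxl2b, which cross-link fibres, had 14.2 and 26.01 CPM at 3 dpa, against 19.7 and 38.3 CPM at 0 dpa. Both were above their 0 dpa level at 7 dpa, with 42.5 CPM for lox and 81.2 CPM for loxl2b. The prolyl hydroxylase subunit p4ha2 had a component (comp21188_c0) with 19.4 CPM at 3 dpa and 2.35 CPM at 0 dpa. Another p4ha2 component, comp39156_c0, had 24.8 CPM at 3 dpa and 20.2 CPM at 0 dpa (relative change -0.76).

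White blood cell genes went in both directions. On the leukocyte list 6 of 19 components were higher and 4 lower, with a median relative change of 0.01. Names came from the table of higher genes for 6 of the 19 and from that of lower genes for 11. The summed level was 2182 CPM at 3 dpa and 2219 CPM at 0 dpa, but cd74a alone held 1407 and 1965 CPM of it. In CPM 15 of the 19 were above their 0 dpa level, against 78.8% of all components. The macrophage receptor csf1ra had 48.6 CPM at 3 dpa and 0.767 CPM at 0 dpa, from 1850 and 30 reads, a log2 change of 4.81 (4.56 to 5.04). The myeloid transcription factor spi1b had a component (comp51087_c0) with 145 CPM at 3 dpa and 11.6 CPM at 0 dpa, and another (comp60271_c0) with 74.9 CPM at 3 dpa and 30.6 CPM at 0 dpa that stayed near the median component, as did the last, comp62997_c0, with 1.73 CPM at 3 dpa and 0.332 CPM at 0 dpa. The formyl peptide receptor fpr1, which guides phagocytes to wounds, had 50.7 CPM at 3 dpa and 2.40 CPM at 0 dpa. The antigen presentation chaperone cd74a had 1407 CPM at 3 dpa and 1965 CPM at 0 dpa, a relative change of -1.53. Lysozyme (lyz) was lower in both of its components, with 2.68 and 10.6 CPM at 3 dpa, against 11.3 and 17.6 CPM at 0 dpa. In bulk tissue, fewer cells of a type and less RNA per cell cannot be told apart, here and in every list that follows. The batf component of this list had a relative change of 2.24, but the single transcript that the study names within it had -0.28.

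Inflammatory mediators and receptors had 7 higher and 4 lower components among 23, with a median relative change of 0.24. Of the 23, 10 names came from the 7 dpa table of higher genes and 11 from that of lower genes. The prostaglandin pathway split between its enzymes. The cyclooxygenase ptgs2b, which makes the prostaglandin precursor, had 126 CPM at 3 dpa and 12.96 CPM at 0 dpa (relative change 2.14). The prostaglandin E synthase ptges had 5.09 CPM at 3 dpa and 73.5 CPM at 0 dpa, a log2 change of -3.61 (-3.79 to -3.43). The cytokine il1b had 6.98 CPM at 3 dpa and 0.460 CPM at 0 dpa, and reached 67.3 CPM at 7 dpa. The cytokine tnfb had 1.65 CPM at 3 dpa and 1.25 CPM at 0 dpa, a difference that counting error alone covers (-0.10 to 0.56). One of 3 components of the shared interleukin 6 family receptor il6st (comp41460_c0) had 265 CPM at 3 dpa and 16.5 CPM at 0 dpa, while the other two were within 2-fold of the median component. The receptor il11ra of the same family had 9.27 CPM at 3 dpa and 0.613 CPM at 0 dpa. Genes of antigen processing, all named from the table of lower genes, had 0 higher and 3 lower of 13, with a median relative change of -0.32. In CPM 10 of the 13 were above their 0 dpa level, near the 78.8% of all components. With library totals the median log2 change was 0.73, against 1.05 for the median component. The immunoproteasome subunit psmb8 had 70.2 CPM at 3 dpa and 89.3 CPM at 0 dpa in its larger component.

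Among immediate early and stress regulators 4 of 14 were higher and 4 lower, against 16.6% and 22.1% among all components. While junb was higher, its AP-1 partner jun had 78.3 CPM at 3 dpa and 250 CPM at 0 dpa, a log2 change of -1.67 (-1.72 to -1.61). The immediate early gene ier5 had 28.9 CPM at 3 dpa and 49.9 CPM at 0 dpa. The macrophage and epithelial regulator mafba had 185 CPM at 3 dpa and 13.3 CPM at 0 dpa (relative change 2.65), and the stress pseudokinase trib3 had 56.0 CPM at 3 dpa and 9.10 CPM at 0 dpa (relative change 1.45).

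Genes of mitosis lay mostly between the median component and 2-fold above it. All 48 mitosis components that passed the filter, of 58 found, had a higher CPM at 3 dpa than at 0 dpa, with relative changes from 0.05 to 1.73 and a median of 0.82. By the 2-fold rule 16 were higher and 0 lower. The mitotic kinesin kif11, which pushes spindle poles apart, had 23.8 CPM at 3 dpa and 2.63 CPM at 0 dpa, a log2 change of 2.77 (2.55 to 3.00). The cytokinesis scaffold anln had 22.5 CPM at 3 dpa and 2.48 CPM at 0 dpa. The proliferation marker mki67 had 82.7 CPM at 3 dpa and 17.3 CPM at 0 dpa (relative change 1.15). The mitotic kinase cdk1 had 29.8 CPM at 3 dpa and 6.98 CPM at 0 dpa (relative change 0.90), just inside 2-fold of the median component. Of the 48 names, 37 came from the 7 dpa table of higher genes. The number counted as higher was 48 with library totals, 25 and 12 with pseudocounts of 0.1 and 5 CPM, and 8 when the whole counting interval had to lie past 2-fold. The shares of all components counted as higher were 51.7%, 26.1%, 12.5% and 12.5% in the same order.

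DNA replication genes lay closer to the median component, with 1 higher and 1 lower among 21 and a median relative change of 0.35. Names came from the table of higher genes for 18 of the 21. Ribonucleotide reductase, which makes the building blocks of DNA, was the highest through its subunit rrm2 (comp17529_c0), with 58.8 CPM at 3 dpa and 9.15 CPM at 0 dpa (relative change 1.51). The rrm2 components comp46238_c1 and comp26944_c0 had relative changes of 0.06 and 0.67, within 2-fold of the median component. The helicase subunit mcm5 had 39.7 CPM at 3 dpa and 14.5 CPM at 0 dpa (relative change 0.35), and the replication licensing factor cdc6 had 5.04 CPM at 3 dpa and 4.01 CPM at 0 dpa (relative change -0.78). Both division lists were at their highest CPM mostly in the 14 dpa library, which held the top value of 46 of the 48 mitosis and 16 of the 21 replication components. No median component was taken off for this ranking, and the share of all components highest at 14 dpa was not measured.

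Of 17 components for folding and export from the endoplasmic reticulum, all had a higher CPM at 3 dpa, 5 were higher by the 2-fold rule and 0 lower, and the median relative change was 0.87. Of their names, 13 came from the table of higher genes. The chaperone hyou1 had 185 CPM at 3 dpa and 21.3 CPM at 0 dpa (relative change 2.01). The cochaperone dnajb11 had 128 CPM at 3 dpa and 22.0 CPM at 0 dpa. The master chaperone of this compartment, hspa5, had 452 CPM at 3 dpa and 100.5 CPM at 0 dpa, a log2 change of 2.16 (2.11 to 2.21). The count was 2 with the trimmed mean, the median of ratios or a pseudocount of 0.1 CPM, and 11 with a pseudocount of 5 CPM. The shares of all components counted as higher were 18.9%, 19.4%, 26.1% and 12.5% in the same order.

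Ribosomal proteins had the largest share of lower components among the 28 lists. Of 64 components that passed the filter 63 were lower and 0 higher, with a median relative change of -2.57, and all 64 names came from the table of lower genes. Their median log2 change before the median component was taken off was -1.53, so that the list was lower in CPM as well, and 52 of the 64 were beyond 2-fold lower with library totals. Together the 70 components of the list took 4.18% of all reads at 3 dpa and 11.3% at 0 dpa. The largest fall was that of rpl38, with 178 CPM at 3 dpa and 1010 CPM at 0 dpa. The stalk protein rplp0 had one of the smaller falls, with 1877 CPM at 3 dpa and 3098 CPM at 0 dpa (relative change -1.77). The remaining component, assigned to rps10 (comp11847_c0), had 2.86 CPM at 3 dpa and 0.511 CPM at 0 dpa, beside a main rps10 component (comp59501_c0) with 536 CPM at 3 dpa and 2092 CPM at 0 dpa. The elongation factor eef1a1l1, which brings transfer RNA to the ribosome and held the most reads of any named component in either library, had 7695 CPM at 3 dpa and 10771 CPM at 0 dpa (relative change -1.53).

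**Figure D3:**
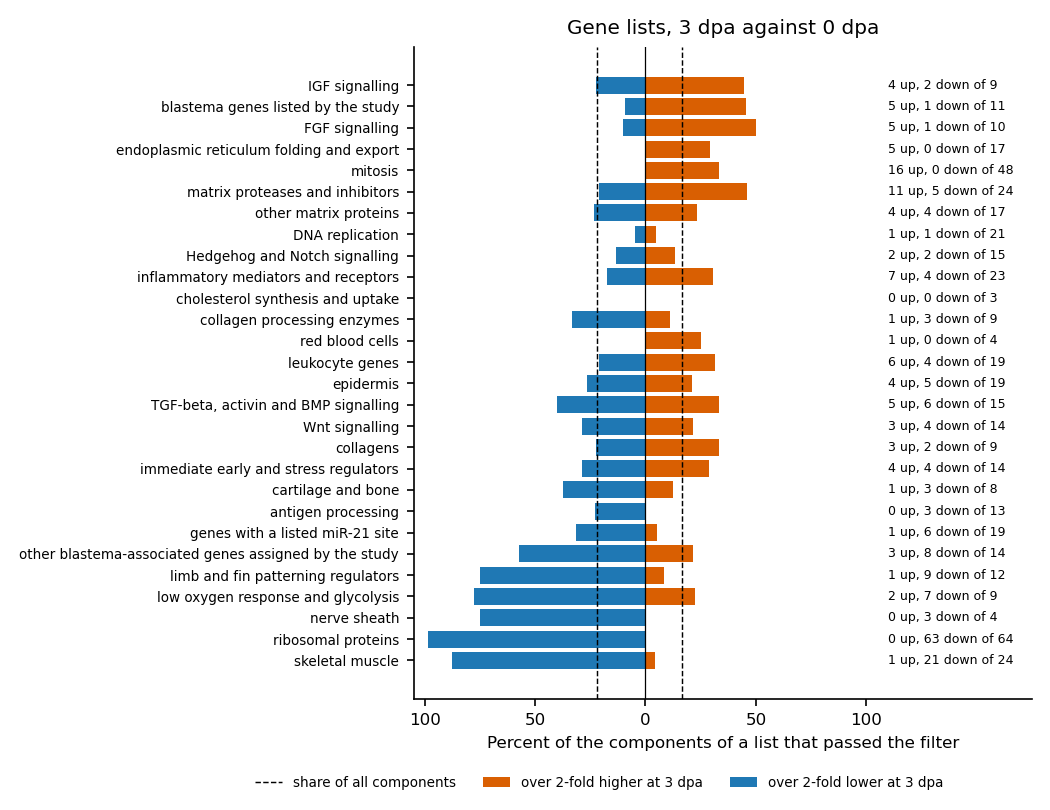
Share of the components of each of the 28 gene lists that were over 2-fold higher (orange, right) or lower (blue, left) at 3 dpa relative to the median component, with counts at the right edge and lists ordered by their median. Dashed lines mark the shares among all components, 16.6% higher and 22.1% lower. Ribosomal proteins (63 of 64) and skeletal muscle (21 of 24) lie farthest to the left.

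Skeletal muscle genes had the lowest median of the 28 lists. Of 24 components 21 were lower and 1 higher, with a median relative change of -3.55 and a median log2 change of -2.51 before the median component was taken off. Of the 24 names, 20 came from the table of lower genes. The main component of nebulin (neb, comp16999_c0), the ruler of the thin filament, had 10.8 CPM at 3 dpa and 1234 CPM at 0 dpa, from 411 and 48288 reads. Its CPM was 114-fold lower at 3 dpa, a log2 change of -6.71 (-6.84 to -6.58). The muscle form of a cytochrome oxidase subunit, cox6a2, had 1.99 CPM at 3 dpa and 292 CPM at 0 dpa. Slow troponin T (tnnt1) had 10.1 CPM at 3 dpa and 401 CPM at 0 dpa. The regulator myod1, which commits cells to muscle, had 1.34 CPM at 3 dpa and 48.4 CPM at 0 dpa. The sarcomere protein gene lrrc39, with a listed 0 at 3 dpa and 106 reads at 0 dpa, was at least 34.4-fold lower. Summed over the 29 components of the list, the level was 1576 CPM at 3 dpa and 12505 CPM at 0 dpa. A component that carries the names of 2 enolases alone held 595 and 8308 CPM of it. At 3 dpa 494 CPM of that lay in the transcript named eno1a, the form of most tissues. The sum is thus not a level of muscle alone. The exception to the falls was dystrophin (dmd), which links the cytoskeleton to the cell membrane and is also made outside muscle. Its components had relative changes of 0.30, 0.49 and 2.47, the middle one (comp57133_c0) carrying the name DST as well. With 24533 reads at 3 dpa and 8681 at 0 dpa, comp57133_c0 also weighed on the summed level. Muscle thus marked the 0 dpa tissue strongly and the 3 dpa tissue weakly. The part of this difference in the 1.05 offset of the median component was not tested.

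Within single components the transcripts could differ as well. The component comp25666_c1 carries the names of 2 enolases of glycolysis, eno3, the muscle form, for its transcript 2 and eno1a, the form of most tissues, for its transcript 1. The eno3 transcript had 100.5 CPM at 3 dpa and 7923 CPM at 0 dpa, a log2 change of -6.29 (-6.33 to -6.24). The eno1a transcript had 494 CPM at 3 dpa and 385 CPM at 0 dpa, a log2 change of 0.36 (0.33 to 0.39). Its share of the component was thus small at 0 dpa, where eno3 took 95.4% of the reads, against 16.9% at 3 dpa. The transcripts of the calcium pump component atp2a2b also moved apart, but the study does not name its transcript 2, so no muscle form is identified. Its transcript 1 had 158 CPM at 3 dpa and 23.98 CPM at 0 dpa, while its transcript 2 had 27.5 CPM at 3 dpa and 471 CPM at 0 dpa, so that the sum of both was lower (relative change -2.46). Transcript 1 is the one that the study names, and its own relative change was 1.62.

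Among 103 components of the lists with several transcripts and at least 200 reads in both libraries, 47 had a transcript whose share differed by more than 20 percentage points, and 32 had a different leading transcript at 3 dpa and 0 dpa. The transcript with the largest difference was taken in each component. The same counts over all components with several transcripts were not measured, so these say nothing particular about the lists. In skila, an inhibitor of TGF-beta signalling, transcript 1 took 96.2% of 4002 reads at 3 dpa and 26.6% of 263 reads at 0 dpa. In the collagen gene col16a1, transcript 1 took 54.3% of 5841 reads at 3 dpa and 97.3% of 4137 reads at 0 dpa. In the myelin gene mbp, transcript 2 took 70.3% of 967 reads at 3 dpa and 0.127% of 3932 reads at 0 dpa, while its transcript 1 had 6.17 CPM at 3 dpa and 75.5 CPM at 0 dpa. Reads that fit several transcripts were divided by a model, so these shares carry more error than counting alone.

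**Figure D4:**
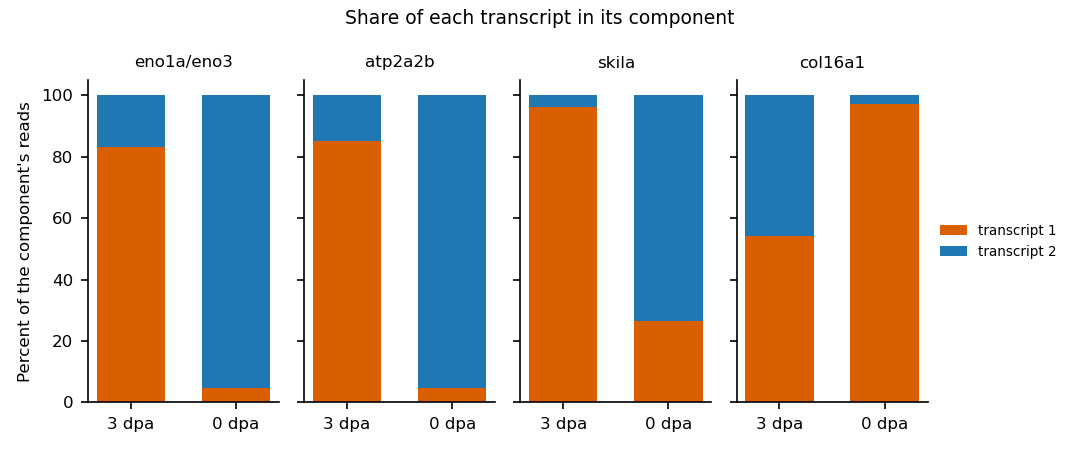
Share of the reads of each transcript in 4 components (vertical, percent), with 3 dpa on the left and 0 dpa on the right of each pair. In the enolase component transcript 2, named eno3, took 16.9% at 3 dpa and 95.4% at 0 dpa, and in skila transcript 1 took 96.2% at 3 dpa and 26.6% at 0 dpa.

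Genes of glycolysis and of the response to low oxygen had 7 of 9 lower and 2 higher, against 3 lower and 2 higher with library totals, and 7 of the 9 names came from the table of lower genes. The list shares the enolase component with muscle. The glucose transporter slc2a1b had 17.6 CPM at 3 dpa and 151 CPM at 0 dpa, a log2 change of -3.03 (-3.14 to -2.92). The lactate dehydrogenase ldhba had 539 CPM at 3 dpa and 952 CPM at 0 dpa. The oxygen-sensing transcription factor hif1ab itself had 246 CPM at 3 dpa and 43.6 CPM at 0 dpa (relative change 1.43). Stanniocalcin (stc1), a secreted hormone that regulates calcium, with 293 reads at 3 dpa and a listed 0 at 0 dpa, was at least 100.3-fold higher.

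Nerve sheath genes were lower in 3 of 4 components, and all 4 names came from the table of lower genes. Myelin protein zero (mpz) had 5.64 CPM at 3 dpa and 44.6 CPM at 0 dpa, and mag, another myelin protein, had 0.604 CPM at 3 dpa and 7.05 CPM at 0 dpa. Of 8 cartilage and bone components 3 were lower and 1 higher, with 3 names from the table of higher genes and 4 from that of lower genes. The skeletal regulator osr2 had 3.26 CPM at 3 dpa and 36.1 CPM at 0 dpa (relative change -4.17). The phosphatase alpl of bone-forming cells had 14.8 CPM at 3 dpa and 6.11 CPM at 0 dpa (relative change 0.11).

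Epidermal genes were present at both stages, and their shares of higher and lower components were close to those of all components. Of 19 components 4 were higher and 5 lower (median relative change -0.01), and 14 of the 19 names came from the table of lower genes. Plakophilin (pkp1b), a plaque protein of desmosomes, had 1151 CPM at 3 dpa and 119 CPM at 0 dpa, a log2 change of 3.26 (3.22 to 3.31). The hemidesmosome integrin itgb4 had 156 CPM at 3 dpa and 28.6 CPM at 0 dpa (relative change 1.36), and the laminin receptor subunit itga3b had 127 CPM at 3 dpa and 29.8 CPM at 0 dpa (relative change 1.01). The keratin krt15 had 2438 CPM at 3 dpa and 1789 CPM at 0 dpa, and the cornified layer proteins ppl and evpla stayed at the median component with relative changes of 0.14 and -0.01. Among tight junction claudins, cldni had 347 CPM at 3 dpa and 440 CPM at 0 dpa, and the weak cldnb had 4 reads at 3 dpa and 118 at 0 dpa.

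Red blood cell genes rested on few components. The heme synthesis enzyme alas2, which is specific to erythroid cells, had 365 CPM at 3 dpa and 34.8 CPM at 0 dpa, a log2 change of 3.35 (3.28 to 3.43). The iron exporter slc40a1, the heme exporter flvcr1 and the progenitor factor cmyb, which other cells express as well, were within 2-fold of the median component, with relative changes from -0.25 to 0.20. The share of blood in the tissue pools was not tested.

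FGF signalling had 5 higher and 1 lower of 10 components, with a median relative change of 0.89. Of these, 2 names came from the table of higher genes and 1 from that of lower genes. Beside the ligand fgf20, the ligand fgf10a had 5.59 CPM at 3 dpa and 0.920 CPM at 0 dpa (relative change 0.73). The receptor fgfr3 had 25.2 CPM at 3 dpa and 2.53 CPM at 0 dpa, but the single fgfr3 transcript that the study names had a relative change of -0.47. The target transcription factor etv5a had 187 CPM at 3 dpa and 26.99 CPM at 0 dpa, whereas its relative etv4 was near the median component, with 20.6 CPM at 3 dpa and 11.3 CPM at 0 dpa. Of the feedback inhibitors, spred1 had 26.1 CPM at 3 dpa and 2.20 CPM at 0 dpa, and the main spry2 component had 21.7 CPM at 3 dpa and 19.2 CPM at 0 dpa.

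In the Wnt pathway 3 of 14 components were higher and 4 lower, near the 16.6% and 22.1% among all components. Names came from the table of higher genes for 8 of the 14 and from that of lower genes for 3. The decoy receptor frzb had 1.18 CPM at 3 dpa and 25.4 CPM at 0 dpa, a log2 change of -3.60 (-3.84 to -3.34). The inhibitor wif1 had 7.11 CPM at 3 dpa and 59.0 CPM at 0 dpa (relative change -3.93). The central effector ctnnb1, which also builds cell junctions, had 557 CPM at 3 dpa and 79.3 CPM at 0 dpa (relative change 1.75). The planar polarity protein vangl2 had 10.7 CPM at 3 dpa and 0.179 CPM at 0 dpa. The ligand wnt10a had 9.24 CPM at 3 dpa and 1.38 CPM at 0 dpa (relative change 1.06). The ligand wnt5b had 11.4 CPM at 3 dpa and 6.75 CPM at 0 dpa (relative change -0.37), and the feedback target axin2 had 29.3 CPM at 3 dpa and 24.7 CPM at 0 dpa (relative change -0.81).

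TGF-beta, activin and BMP signalling had 5 higher and 6 lower of 15 components. Names came from the table of higher genes for 8 of the 15 and from that of lower genes for 4. The activin subunit inhbab, a ligand that zebrafish fins need for regrowth, had 13.5 CPM at 3 dpa and 0.639 CPM at 0 dpa, from 516 and 25 reads, with a log2 change of 3.15 (2.88 to 3.38). The transcriptional inhibitor skila had 105 CPM at 3 dpa and 6.72 CPM at 0 dpa, and the ubiquitin ligase smurf1, which degrades receptors and SMAD proteins, had 15.2 CPM at 3 dpa and 1.89 CPM at 0 dpa. On the BMP side, the receptor bmpr1ba had 1.05 CPM at 3 dpa and 5.90 CPM at 0 dpa, the extracellular modulator twsg1a had 7.69 CPM at 3 dpa and 16.7 CPM at 0 dpa, and bmp2 was lower as given above, while the effector smad1 had 36.2 CPM at 3 dpa and 6.70 CPM at 0 dpa (relative change 1.23). The receptor tgfbr2 had 152 CPM at 3 dpa and 288 CPM at 0 dpa, a log2 change of -0.91 (-0.96 to -0.87). The effector smad3a had 31.9 CPM at 3 dpa and 32.6 CPM at 0 dpa (relative change -1.07).

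IGF signalling had 4 higher and 2 lower of 9 components. Names came from the table of higher genes for 7 of the 9 and from that of lower genes for 2. One component of the receptor igf1ra (comp40992_c0) had 88.0 CPM at 3 dpa and 5.65 CPM at 0 dpa, the adaptor grb10b, which restrains this receptor, had 31.6 CPM at 3 dpa and 2.10 CPM at 0 dpa, and the ligand igf2b had 10.2 CPM at 3 dpa and 1.92 CPM at 0 dpa (relative change 0.89). In the Hedgehog and Notch pathways 2 of 15 were higher and 2 lower, against 16.6% and 22.1% among all components. Both components of the Hedgehog signal transducer smo rested on 4 reads each at 0 dpa and had 171 and 211 reads at 3 dpa. The Notch ligand jag2b had 42.2 CPM at 3 dpa and 9.53 CPM at 0 dpa (relative change 0.99), and the Notch target hey2 had 1.18 CPM at 3 dpa and 3.73 CPM at 0 dpa. All 3 cholesterol genes that passed the filter, hmgcra, cyp51 and ldlr, were within 2-fold of the median component, and their names came from the table of lower genes.

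Of 12 components of limb and fin pattern regulators 9 were lower and 1 higher relative to the median component, with a median relative change of -1.30, though the median log2 change in CPM was only -0.25 and with library totals 1 was beyond 2-fold lower and 2 higher. The regulator hoxa11, which patterns the middle of the limb, was beyond 2-fold lower on either scale, with 7.95 CPM at 3 dpa and 22.9 CPM at 0 dpa and a log2 change of -1.42 (-1.59 to -1.24). The distal gene hoxa13 had 10.1 CPM at 3 dpa and 12.5 CPM at 0 dpa, and reached 32.3 CPM at 14 dpa. The msh family genes msxc, msxd and msxe, of which msxc and msxe also stand on the blastema list above, had 2.15, 2.13 and 6.56 CPM at 3 dpa, against 3.02, 2.35 and 6.57 CPM at 0 dpa. The mesenchymal regulator prrx1b had 37.4 CPM at 3 dpa and 53.4 CPM at 0 dpa (relative change -1.55), but the single prrx1b transcript that the study names had a relative change of 0.12. The exception was sp8b, an epidermal regulator of outgrowth, with 42.1 CPM at 3 dpa and 8.28 CPM at 0 dpa (relative change 1.17). The 14 dpa library held the highest CPM of 8 of the 12, the 7 dpa library that of 3 and the 0 dpa library that of 1. Again no median component was taken off, and the share of all components highest at each stage was not measured.

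The study lists sites for the microRNA miR-21 in 19 bichir transcripts. MicroRNAs bind messages mainly through the seed, bases 2 to 8, and lower their stability. Of the 19 sites 4 hold the complement of the whole seed (ATAAGCT) and 11 were listed with an extra U in the seed. The mature bichir miR-21 and the 4 sites with the whole match are shown so that the seed (capitals in miR-21) can be set against its complement (capitals in the sites).
miR-21: uAGCUUAUcagacugguguuggc
pdcd4: gttcatatccaatgcttATAAGCTa
chka: tttatggtcactggATAAGCTg
hsd3b7: tggccgtacagaattATAAGCTc
sort1: atgaggatctccttgaATAAGCTg

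Of the 19 components with a listed site 6 were lower and 1 higher at 3 dpa, with a median relative change of -0.36. With library totals 2 were lower and 8 higher, with a median log2 change of 0.69. Among all components 8.87% were lower and 51.7% higher on that scale, with a median of 1.05. In CPM 15 of the 19 were above their 0 dpa level, near the 78.8% of all components. The study drew all 19 from genes that it had found lower, in bichir at 7 dpa against the same 0 dpa library. Their direction is thus not independent evidence. For 10 of them the name also stands in the table of lower genes. Among those with the whole seed match, pdcd4, a translation inhibitor and well-studied target, had 20.2 CPM at 3 dpa and 13.1 CPM at 0 dpa as a component. The pdcd4 transcript that carries the printed site had 6.98 CPM at 3 dpa and 11.2 CPM at 0 dpa, a log2 change of -0.61 (-0.81 to -0.41), while a transcript of the same component without a listed site had 12.7 CPM at 3 dpa and 1.71 CPM at 0 dpa. As components, the choline kinase chka had 52.2 CPM at 3 dpa and 51.5 CPM at 0 dpa, the bile acid enzyme hsd3b7 had 13.02 CPM at 3 dpa and 13.2 CPM at 0 dpa, and the sorting receptor sort1 had 9.87 CPM at 3 dpa and 3.35 CPM at 0 dpa. The chka transcript with the printed site went the other way from that of pdcd4, with 1436 reads at 3 dpa and 986 at 0 dpa. The hsd3b7 transcript with the printed site had 132 reads at 3 dpa and 292 at 0 dpa. The lowest of all 19 were mbp (25.4 CPM at 3 dpa, 100.5 CPM at 0 dpa) and the helicase eif4a1 of translation initiation (573 CPM at 3 dpa, 1606 CPM at 0 dpa), neither with the whole seed match. The highest was the kinase rps6ka1, with 189 CPM at 3 dpa and 33.5 CPM at 0 dpa.

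Among all named components with a mean of at least 10 CPM, the 10 largest rises included 5 matrix metalloproteinase components (mmp13b in 3, mmp13a and mmp9) and adam8a. Outside the lists they held the nuclear lamina gene lmnb2, with 50.5 CPM at 3 dpa and 0.307 CPM at 0 dpa, sgpl1, which breaks down the lipid messenger sphingosine 1-phosphate, with 162 CPM at 3 dpa and 5.60 CPM at 0 dpa, and CABZ01055869.1, with 44.0 CPM at 3 dpa and 0.767 CPM at 0 dpa. The 10 largest falls included neb, cox6a2 and HRC from the muscle list. Outside the lists were the gluconeogenic enzyme fbp1a, with 1.23 CPM at 3 dpa and 191 CPM at 0 dpa, the methyl transfer enzyme bhmt, with 2.23 CPM at 3 dpa and 243 CPM at 0 dpa, an alpha actin named acta2, with 0.787 CPM at 3 dpa and 112 CPM at 0 dpa, the sodium pump subunit atp1a1b, with 2.70 CPM at 3 dpa and 168 CPM at 0 dpa, and eef2l2, with 2.13 CPM at 3 dpa and 132 CPM at 0 dpa. The largest of all was that of zgc:136930, with 3.46 CPM at 3 dpa and 1141 CPM at 0 dpa, and wu:fb15e04 had 10.2 CPM at 3 dpa and 625 CPM at 0 dpa. Some components without a name moved as far. The component comp53950_c0 had 5643 reads at 3 dpa and 3 at 0 dpa, and comp53258_c0 had 849 CPM at 3 dpa and 7.11 CPM at 0 dpa. The components comp16649_c0 and comp16899_c0 had 38.0 and 21.7 CPM at 3 dpa, against 7402 and 3985 CPM at 0 dpa.

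The libraries at 7 and 14 dpa place the 3 dpa values in the course of regrowth, again with 1 library per stage. Over the stages 0, 3, 7 and 14 dpa the matrix protease list had a median log2(CPM + 1) of 4.20, 6.92, 7.85 and 6.77, and 14 of its 24 components were highest at 7 dpa. For the inflammatory list it was 3.41, 4.82, 4.60 and 4.79, and 11 of 23 components were highest at 3 dpa, more than at any other stage. The mitosis list had 1.87, 4.17, 4.04 and 4.50. The ribosomal protein list had 10.72, 9.14, 9.99 and 9.29, and 61 of its 64 components were highest at 0 dpa. The muscle list had 5.37, 1.80, 0.32 and 3.60, so that its lowest level came at 7 dpa. As above, no median component was taken off, and the share of all components highest at each stage was not measured.

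**Figure D5:**
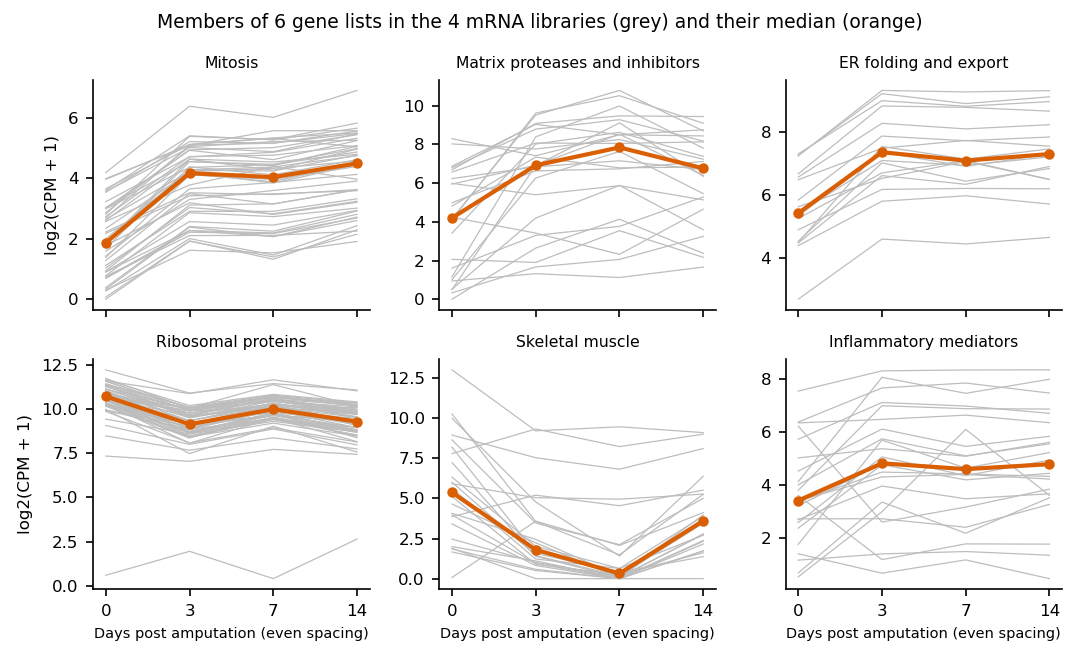
log2(CPM + 1) of the components of 6 lists (grey lines) and their median (orange) in the 1 library of every stage (horizontal, days post amputation, evenly spaced). From 0 to 3 to 7 dpa the muscle median ran 5.37, 1.80 and 0.32, and the mitosis median 1.87, 4.17 and 4.04.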

How the data were processed

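The authors trimmed mRNA reads with Trimmomatic, assembled transcripts with Trinity and estimated reads per transcript with RSEM, with edgeR for analysis. Versions and strand settings are not given in the sources used here. The table was deposited as log2 values, which the authors call log CPM. All values above 0 were powers of 2 of whole numbers (within 0.01%), so they were read as log2 of unscaled reads, with a listed 0 read as 0. Of 132496 rows, 4760 exact repeats were dropped, leaving 127736 transcripts, summed into 94050 components and divided by library totals to give CPM. Changes are differences of log2(CPM + 1), which understates those of low components, minus the median over components with a mean of at least 1 CPM. Higher and lower mean beyond 2-fold.

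Intervals are exact (Clopper-Pearson) 95% intervals of the pair of counts carried to the log2 scale. They cover counting error only, since reads are not independent molecules. Folds against a listed 0 were computed at 3 reads. Alternatives were other scalings, pseudocounts of 0.1 and 5 CPM, filters, thresholds, single transcripts and readings of the values.

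Names (2555 components, 28 of them with several symbols) came from the study's tables, of which only part was at hand. No value from those tables was used, and no identifier matched the RefSeq gene table (0). Named components were list members (defining genes and largest changes), the 10 largest rises and falls with a mean of at least 10 CPM, the most abundant, and 2 unnamed in each direction. Members and lists were chosen with earlier results of these data known. The small RNA table was not used here. Python 3.11.15, numpy 2.4.6, pandas and scipy 1.17.1 were used, and the code was tested on simulated counts.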

Additional observations from a re-analysis of the deposited data

How the results depend on the processing

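With 1 library per group no library could be left out, and no paired analysis was possible because each group had 1 library. Scaling had the largest effect on the 4507 higher and 5998 lower components. Library totals with no median taken off gave 14023 higher and 2406 lower, and totals without the 10 most abundant components 13618 higher and 3025 lower. A pseudocount of 0.1 CPM gave 7072 higher, and one of 5 CPM gave 2741 lower. Without a filter 11125 were higher, a filter of 10 CPM left 2167 higher and 2536 lower of 10393, a 1.5-fold threshold gave 7794 higher, and single transcripts gave 7867 higher and 9948 lower. The trimmed mean (4200 higher, 5050 lower), the median of ratios, a listed 0 read as 1 read, repeated rows kept and the whole counting interval past 2-fold stayed closer. Reading the values as log2 of reads plus 1, an alternative chosen after the data were seen, gave 4540 higher and 5986 lower.

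Of 449 components and 28 list medians followed through the alternatives, 8 values of components beyond 2-fold and 0 of medians beyond 2-fold changed sign. Medians within 2-fold did so, as for collagens (-0.18, against 1.34 with single transcripts, where a gene can count several times). With library totals cxcl12 had 0.0044 (from -1.04), chka 0.019 (from -1.03) and dnajc18 0.044 (from -1.002). Taking the single transcript that the study names gave 0.12 for prrx1b (from -1.55), -0.28 for batf (from 2.24), -0.47 for fgfr3 (from 1.84), 0.95 for a ctsla component (from -1.64) and 1.62 for atp2a2b (from -2.46). The cause was not tested. Counting error is small for most named components, but the lack of a second library per stage limits every difference, and the folds of fgf20 and smo rest on 13 and 4 reads at 0 dpa.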
